A study of Mus musculus with 32 samples.

Results

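The cytochrome P450 genes of mice on a high-fat diet were followed across liver and 3 fat depots, with and without auranofin. They were taken as the protein-coding genes of the expression table whose symbol is Cyp, a family number, a subfamily letter and a gene number. The rule gave 93 genes of the 54532 in the table, 22046 of which are protein-coding. The 93 genes belong to 16 numbered families. Family 2 is the largest with 48 genes, followed by family 4 with 17 and family 3 with 7. Families 1, 11 and 26 have 3 genes each, families 7 and 27 have 2 each, and the other 8 families have 1 each.

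RNA libraries were made from wild-type mice of the strain given as C57/Bl6j or C57Bl/6, all fed a diet with 60% fat for 12 weeks. The treated mice then received auranofin at 1 mg per kg 3 times a week for 4 weeks, and the control mice received vehicle on the same schedule. Auranofin is an oral gold drug for rheumatoid arthritis, known to block thioredoxin reductase, and the study asked about its action against diabetes in obese mice. Each of liver, intrascapular brown fat (BAT), epididymal white fat (eWAT) and inguinal white fat (iWAT) has 4 auranofin and 4 vehicle libraries, 32 in all. Age and sex are not given in the labels, nor is it said that the libraries of a group came from separate animals, so the p-values below measure only the spread between libraries. Levels are FPKM, reads scaled by the authors for gene length and a library size, given as mean ± SD over 4 libraries (n = 4) unless another number is stated. That library size, 10559760 to 24013795, was not the number of reads in genes. It lay below the reads in genes in every liver library and above them in every white fat library. FPKM therefore sets liver higher against white fat than scaling by reads in genes would.

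Cytochrome P450 enzymes hold a haem group and, with electrons passed on by a reductase, put an oxygen atom into their substrates. Families 1 to 3 handle mostly drugs, pollutants and other foreign compounds, family 4 hydroxylates fatty acids and eicosanoids, and the higher-numbered families mostly make or break down bile acids, steroid hormones, retinoic acid and vitamin D. Liver is the main site of P450 expression, where genes of families 1 to 3 respond to the receptors AHR, CAR and PXR, and genes of the Cyp4a group to PPAR-alpha.

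The libraries held 13606756 to 19205640 reads in genes. The summed FPKM of 10 hepatocyte markers was 94828 to 136188 in liver auranofin libraries and 91699 to 116975 in liver vehicle libraries, against at most 747 in any fat library. The 6 brown adipocyte markers summed to 8450 to 14233 FPKM in BAT auranofin and 6081 to 10553 FPKM in BAT vehicle libraries. In liver they summed to 235 to 738 FPKM with auranofin and 305 to 472 FPKM with vehicle, above the 11.7 to 199 FPKM of white fat. Ucp1, the uncoupling protein of brown fat and 1 of these markers, had no read in liver. In eWAT, vehicle libraries 1 and 2 stood apart, with macrophage markers summing to 881 and 741 FPKM, against 145 to 396 FPKM in auranofin libraries and 346 and 388 FPKM in vehicle libraries 3 and 4. In iWAT, auranofin library 2 stood apart from the other auranofin libraries. Its 6 endothelial markers summed to 76.2 FPKM, against 159 to 204 FPKM in auranofin libraries 1, 3 and 4 and 84.0 to 114 FPKM in vehicle libraries.

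The DNA just before the start of 5 members is shown because these genes carry the contrasts described below, between liver and fat and between auranofin and vehicle. RefSeq promoter sequences on the mouse build GRCm38.p6, the build the authors' files use under the name mm10, were matched for 72 of the 93 genes. Each line gives the 150 bases before the start, on the strand of the gene. Capitals mark the letters TATAAA, the core of a TATA box, and GCGTG, the core of the element bound by AHR, wherever either occurs on either strand, so that CACGC is GCGTG read on the other strand. The Cyp1a1 line is chr9:57697463-57697612 on the plus strand, Cyp1a2 is chr9:57683656-57683805 on the minus strand, Cyp1b1 is chr17:79715062-79715211 on the minus strand, Cyp2e1 is chr7:140763669-140763818 on the plus strand and Cyp20a1 is chr1:60343150-60343299 on the plus strand. The RefSeq start of Cyp1a1 lies 9685 bases inside the gene as the files place it. Of the other genes the results turn on, the files place Cyp4b1 at chr4:115624725-115647723, Cyp2d22 at chr15:82370527-82380260, Cyp2b10 at chr7:25897620-25926624 and Cyp26b1 at chr6:84571414-84593908.
Cyp1a1: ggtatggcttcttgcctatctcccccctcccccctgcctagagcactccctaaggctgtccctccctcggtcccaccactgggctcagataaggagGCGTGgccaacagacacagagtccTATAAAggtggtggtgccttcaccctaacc
Cyp1a2: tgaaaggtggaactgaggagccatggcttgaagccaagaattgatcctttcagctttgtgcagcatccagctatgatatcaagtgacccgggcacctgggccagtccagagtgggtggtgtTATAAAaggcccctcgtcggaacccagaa
Cyp1b1: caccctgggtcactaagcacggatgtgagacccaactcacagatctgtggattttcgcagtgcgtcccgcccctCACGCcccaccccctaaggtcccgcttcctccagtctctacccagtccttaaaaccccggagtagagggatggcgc
Cyp2e1: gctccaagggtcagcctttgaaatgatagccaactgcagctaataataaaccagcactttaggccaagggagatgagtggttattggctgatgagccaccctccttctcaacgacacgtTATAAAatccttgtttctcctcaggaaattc
Cyp20a1: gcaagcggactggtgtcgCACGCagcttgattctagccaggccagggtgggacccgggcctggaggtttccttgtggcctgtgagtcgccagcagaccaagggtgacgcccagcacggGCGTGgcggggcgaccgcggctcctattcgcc

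TATAAA stands 30 bases before the Cyp1a1 start, 29 before that of Cyp1a2 and 31 before that of Cyp2e1, and is not in the 150 bases shown for Cyp1b1 and Cyp20a1. GCGTG lies 54 bases before the Cyp1a1 start, 76 before that of Cyp1b1, and 132 and 32 before that of Cyp20a1. Over the full promoters of 300 bases, 250 before and 50 after the start, TATAAA was in 41.7% of the members (30 of 72), against 13.6% of all 32851 promoters, and GCGTG was in 19.4% of the members (14 of 72), against 32.4% of all. A match describes these letters only and marks no bound site.

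The P450 genes were far higher in liver than in fat. Their summed FPKM was 12201 ± 1040 in liver, against 193 ± 24.9 in BAT, 329 ± 151 in eWAT and 343 ± 93.6 in iWAT (n = 8 libraries each). They made up 2.03% of all FPKM in liver, 0.0405% in BAT, 0.119% in eWAT and 0.107% in iWAT. By vehicle median, 55 of the 93 genes reached 1 FPKM in liver, 15 in BAT, 16 in eWAT and 17 in iWAT. In liver 26 reached 100 FPKM, none in BAT, and only Cyp2e1 in eWAT and iWAT. No read was found in any library for 9 genes: Cyp2c66, Cyp2j7, Cyp2w1, Cyp3a16, Cyp3a44, Cyp4a29, Cyp4f40, Cyp11b1 and Cyp11b2.

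Sorted by where the vehicle median reached 1 FPKM, 38 genes were in liver only, 17 in liver and at least 1 depot, 5 in fat only and 33 in no tissue. The 5 fat-only genes were Cyp1a1, Cyp1b1, Cyp2s1, Cyp4f16 and Cyp4f18. Of the 17 genes of liver and fat, 9 reached 1 FPKM in all 4 tissues: Cyp2d22, Cyp2e1, Cyp2j6, Cyp4b1, Cyp4f13, Cyp4f17, Cyp4v3, Cyp20a1 and Cyp27a1. Promoters of the liver-only genes held few CpG pairs, with a median of 2 per 300 bases, against 2.5 in genes below 1 FPKM everywhere, 6 in genes of liver and fat, 4 in the fat-only genes and 7 over all promoters. TATAAA was in 19 of 31 liver-only promoters, 3 of 12 of liver and fat, 1 of 5 of fat only and 7 of 24 of genes below 1 FPKM everywhere. The classes rest on the vehicle libraries and no test was made between them.

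**Figure D1:**
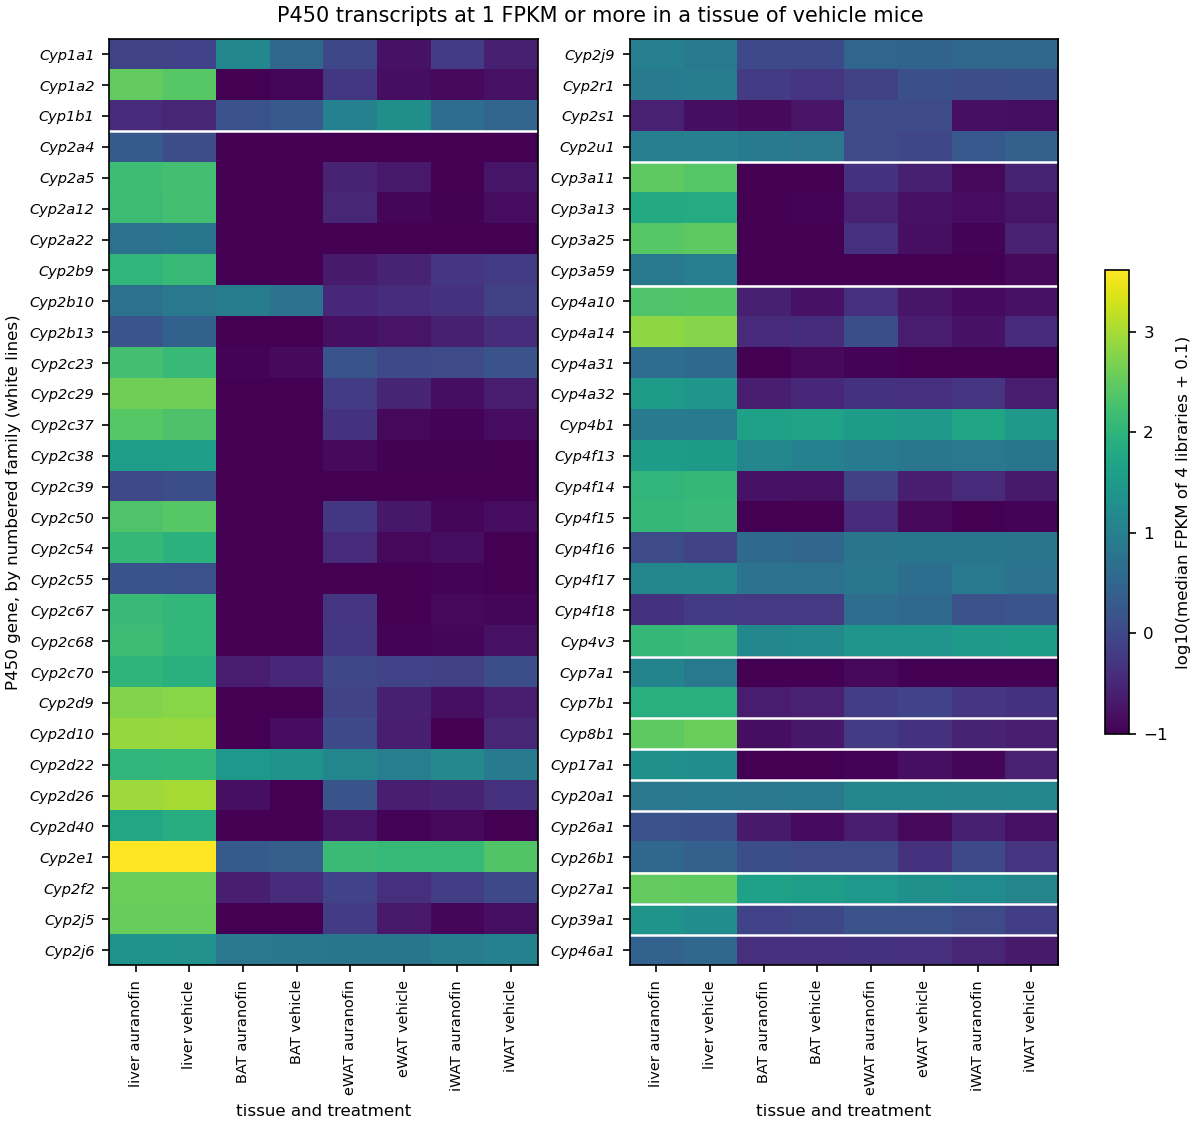
Median level of the 60 P450 genes that reached 1 FPKM in a vehicle tissue, as log10(FPKM + 0.1) over 4 libraries, with genes by numbered family down the page and tissue and treatment across it. Most rows are bright in the liver columns alone, while Cyp4b1, Cyp4v3, Cyp27a1 and Cyp20a1 are seen in every column, and each auranofin column resembles its vehicle column.

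The genes lie largely in tandem clusters: 71 of the 93 fall in 10 groups whose members lie within 500 kb of the next. The largest is the Cyp2c cluster on chromosome 19, with 14 genes over 1180 kb, and the next is a chromosome 7 cluster of 13 Cyp2a, Cyp2b, Cyp2f, Cyp2g, Cyp2s and Cyp2t genes. In that chromosome 7 cluster Cyp2f2, a periportal enzyme of liver, had 385 ± 53.6 FPKM in liver vehicle libraries, while Cyp2s1 had 1.11 ± 0.336 FPKM in eWAT vehicle and 0.0520 ± 0.0313 FPKM in liver vehicle libraries. Coding sequences of 17 members were at least 95% identical to that of another member, such as Cyp2a4 and Cyp2a5 at 98.4% and Cyp3a25 and Cyp3a59 at 97.5%. Levels of such genes are uncertain, since reads could be split between copies. The libraries also do not record strand, so genes that overlap another gene, among them Cyp2u1, Cyp4f18, Cyp20a1 and Cyp4v3, may include its reads.

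Among the enzymes of foreign compounds, Cyp2e1, which oxidises ethanol and ketones, was the highest P450 transcript of liver and of both white depots. It averaged 4011 ± 462 FPKM in liver, 32.8% of the P450 sum there, 149 ± 116 FPKM in eWAT and 177 ± 103 FPKM in iWAT, but 3.07 ± 3.07 FPKM in BAT (n = 8 each). Without BAT auranofin library 4, at 10.6 FPKM, the BAT mean of Cyp2e1 was 1.995 ± 0.530 FPKM (n = 7). The Cyp2d group followed in liver, with Cyp2d26 at 900.3 ± 109, Cyp2d10 at 763 ± 78.7 and Cyp2d9 at 585 ± 78.0 FPKM. The fatty acid hydroxylase Cyp4a14, a PPAR-alpha target, averaged 630.0 ± 167 FPKM and Cyp2c29, a CAR target, 402 ± 75.0 FPKM in liver. In BAT the highest member was Cyp4b1 at 43.3 ± 6.47 FPKM, then the mitochondrial sterol hydroxylase Cyp27a1 at 39.3 ± 4.91 and Cyp2d22 at 25.5 ± 4.50 FPKM.

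Liver was then set against the mean of the 3 fat depots in the 16 vehicle libraries. Differences are on the log2(FPKM + 1) scale, which understates those of low genes, and were tested with limma on all genes with a mean of at least 0.5 FPKM, with an adjusted p (Benjamini-Hochberg over all genes tested) under 0.05 as the threshold. Of the 93 genes 55 could be tested. In liver 49 were higher than in fat, a background of 36.0% over all genes, and 5 were lower, a background of 36.1%. TPM scaling, which shifted the median of all genes by -0.66, kept the direction and the call of the 11 genes named below with a passing difference. Many members passed the filter only through their liver level and so had to differ, and their count says little beyond that. The largest differences were those of Cyp2d26 at 9.54 (SE 0.27, adjusted p = 1.83e-14), Cyp2d10 at 9.25, Cyp2d9 at 8.997, Cyp4a14 at 8.76, Cyp2c29 at 8.47 and Cyp2j5, an arachidonic acid epoxygenase, at 8.22.

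The 5 genes lower in liver than in fat were Cyp1b1, Cyp4b1, Cyp4f16, Cyp4f18 and Cyp20a1. Cyp1b1, an oxidase of polycyclic hydrocarbons and estrogens, had 0.238 ± 0.139 FPKM in liver, 1.81 ± 0.551 in BAT, 20.1 ± 9.88 in eWAT and 3.07 ± 0.397 in iWAT vehicle libraries, a difference of -2.28 (SE 0.21, limma adjusted p = 7.37e-08). Cyp4b1, a fatty acid and xenobiotic hydroxylase, had 7.86 ± 0.776 FPKM in liver against 46.0 ± 6.97, 28.5 ± 6.44 and 30.7 ± 2.05 FPKM in BAT, eWAT and iWAT, a difference of -1.98 (SE 0.12, adjusted p = 4.46e-10). For both genes every liver vehicle library lay below every fat vehicle library. Cyp4f16 differed by -1.63 (SE 0.12) and Cyp4f18, a hydroxylase of leukotriene B4, by -0.79 (SE 0.19). Cyp20a1, an orphan P450 with no settled substrate, was at 7.27 ± 0.663 FPKM in liver, 7.39 ± 0.890 in BAT, 13.1 ± 0.602 in eWAT and 12.9 ± 0.595 in iWAT, a difference of -0.51 (SE 0.07). On the FPKM scale liver and BAT lay within their spread for Cyp20a1, as did eWAT and iWAT. Liver was not tested against BAT alone, and on the TPM scale Cyp20a1 passed between eWAT and iWAT. Cyp1a1 was the tested member that did not pass between liver and fat (-0.12, adjusted p = 0.621), being higher in BAT and lower in white fat than in liver.

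BAT was next set against the mean of the white depots. In BAT 8 members were higher (14.5% of the 55 tested, background 26.3%) and 13 were lower (23.6%, background 29.7%). Many of the 55 passed the filter only through their liver level and were near 0 in fat, so they could hardly be called. Scaling each library to TPM shifted the median of all genes by -0.51 and gave 5 higher and 17 lower. Cyp1a1, the classic AHR target that oxidises polycyclic aromatic compounds, had 2.72, 4.28, 8.76 and 2.35 FPKM in BAT vehicle libraries, against 0.0149 to 0.370 FPKM in eWAT and 0.0385 to 0.437 FPKM in iWAT. The BAT libraries did not overlap the white fat libraries, and the difference was 2.12 (SE 0.22, limma adjusted p = 7.28e-07). Cyp1a1 exceeded the liver level too, 0.747 ± 0.174 FPKM, whereas its neighbour Cyp1a2 had 253 ± 15.3 FPKM in liver and 2 reads in all in the BAT vehicle libraries.

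Other members higher in BAT were the CAR target Cyp2b10 at 1.91 (SE 0.23), the fatty acid hydroxylase Cyp2u1 at 1.69, Cyp2d22 at 1.33, Cyp27a1 at 1.17 and Cyp4f13 at 0.71. On the TPM scale the last of these no longer passed, at 0.20 (adjusted p = 0.266). Lower in BAT were Cyp2e1 at -5.57 (SE 0.33, adjusted p = 1.73e-09), Cyp1b1 at -1.68, Cyp4f18 at -1.14, Cyp2j9 at -1.11, Cyp2c23 at -1.04 and Cyp4v3 at -0.93. Cyp2e1 had 1.49 to 2.602 FPKM in BAT vehicle libraries, against 49.4 to 182 FPKM in eWAT and 120.1 to 389.6 FPKM in iWAT. These BAT and white fat libraries lay far apart, with the lowest white library well above the highest BAT library.

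Between the white depots, eWAT was higher than iWAT for 3 members (5.45% of the 55 tested, background 21.4%) and lower for 3 (5.45%, background 24.8%). Here too many of the 55 passed the filter only through liver and could hardly be called. Scalings moved this split: TPM gave 8 higher and 1 lower after a shift of 0.32 in the median of all genes, quantile normalisation 3 and 5, and voom on rebuilt reads 5 and 3. Cyp1b1 was higher in eWAT by 2.25 (SE 0.26, limma adjusted p = 1.07e-05), with 11.02 to 30.0 FPKM in eWAT and 2.597 to 3.52 FPKM in iWAT. Its 2 highest eWAT libraries were vehicle 1 and 2, those with the highest macrophage markers. Cyp4f18 was higher by 0.79 (adjusted p = 0.0124) and the oxysterol hydroxylase Cyp39a1 by 0.54 (adjusted p = 0.0215). The Cyp4f18 call was lost with a pseudocount of 0.1 (adjusted p = 0.0916). That of Cyp39a1 was lost with quantile normalisation (adjusted p = 0.0763), without eWAT vehicle library 2 (0.0602) or iWAT vehicle library 3 (0.0507), and between the auranofin libraries, where Cyp39a1 differed by 0.24 (adjusted p = 0.499). Cyp2u1 was lower in eWAT (-0.96, SE 0.15, adjusted p = 0.000117), with 0.580 to 1.00 FPKM in eWAT and 1.99 to 3.42 FPKM in iWAT and no overlap. Between the auranofin libraries of the depots Cyp2u1 differed by -0.40 and did not pass (adjusted p = 0.230). Cyp2j6 (-0.46) and Cyp2e1 (-1.11, adjusted p = 0.0262) were lower as well, but the Cyp2e1 difference was 0.34 (adjusted p = 0.797) between the auranofin libraries of the depots. The Cyp2e1 call was also lost without eWAT vehicle library 1 or 2 or iWAT vehicle library 1 or 4 (adjusted p of 0.0552 to 0.0968), and with TPM scaling (-0.67), quantile normalisation (-0.66) or no filter on low genes. The Cyp2j6 call was lost without eWAT vehicle library 1, 3 or 4 or iWAT vehicle library 1, 2 or 3 (adjusted p of 0.0515 to 0.0644), between the auranofin libraries (-0.38, adjusted p = 0.0542) and on the TPM scale, where it was at -0.08.

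Low levels of liver-only P450 transcripts in fat moved with hepatocyte markers. For the 25 liver-only members with at least 50 FPKM in liver, the median level in each fat library was expressed as a percent of the liver level, and so were the 10 hepatocyte markers. In eWAT auranofin library 2 the P450 median was 0.646% of the liver level and the marker median 0.868%. The other libraries with the most were iWAT vehicle library 1, at 0.526% and 0.504%, and eWAT auranofin library 3, at 0.235% and 0.233%. The 25 genes summed to 51.1, 37.6 and 18.2 FPKM in these 3 libraries, against 0.758 to 6.64 FPKM in the other 21 fat libraries. Changes of liver-only members in eWAT and iWAT are given below beside these marker levels.

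**Figure D2:**
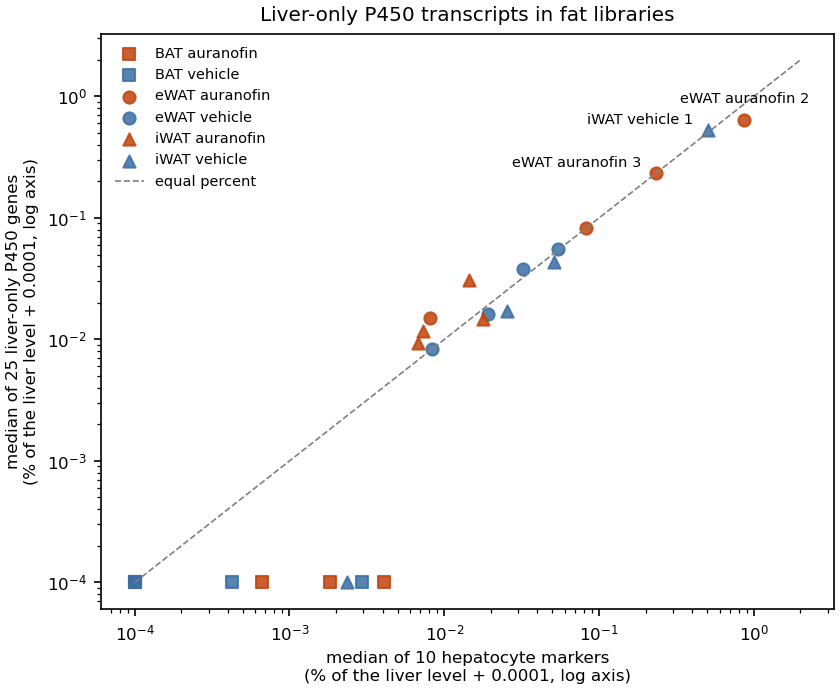
Each point is 1 of the 24 fat libraries, with the median level of 10 hepatocyte markers on the horizontal axis and of 25 liver-only P450 genes on the vertical axis, both as percent of the liver level plus 0.0001 on log axes. Where the P450 median is above 0 the points lie near the dashed line of equal percent, and the 8 BAT libraries and iWAT vehicle 3 have a P450 median of 0 and a marker median of at most 0.004%, with eWAT auranofin 2, iWAT vehicle 1 and eWAT auranofin 3 at the top.

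Cyp1a1 did not follow this relation. In eWAT auranofin library 2 it stood at 2189% of its liver level, against 1.26% for Cyp1a2, so that library held more Cyp1a1 than liver itself.

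Auranofin changed no P450 gene past the threshold in any of the 4 tissues. In BAT 17 members were tested and 0 were called, a background of 0.023% (3 genes of 13067), in eWAT 0 of 30 with a background of 0.0%, in iWAT 0 of 26 with a background of 0.0%, and in liver 0 of 58 with a background of 0.0%. Voom on rebuilt reads also called 0 members in each tissue. Other fits did call members in white fat. Quality weights for the libraries called 8 in iWAT (30.8% of members, against 46.3% of all genes), and 1 fit of all 32 libraries called 1 in iWAT (3.85%, against 5.48%) and 2 in eWAT (6.67%, against 9.24%). At an unadjusted p under 0.05 there were 4 in BAT, all higher (23.5% of members, background 11.2%), 6 in eWAT, 4 higher and 2 lower (20% of members, background 11.4%), 3 in iWAT, 2 higher and 1 lower (11.5%, background 22.0%), and 1 in liver, higher (1.72%, background 6.04%). Members whose auranofin and vehicle libraries did not overlap numbered 2 in BAT (11.8%, background 5.33%), 2 in eWAT (6.67%, background 6.95%), 0 in iWAT (background 5.18%) and 1 in liver (1.72%, background 3.72%). These shares rest on few genes and lie on both sides of the background. Those of eWAT include Cyp26b1, which passed the filter only through the auranofin group. The median change of the tested members was 0.13 in BAT, 0.33 in eWAT, -0.075 in iWAT and -0.0057 in liver. Over all genes tested it was 0.022 in BAT, 0.0029 in eWAT, -0.017 in iWAT and -0.0080 in liver. On the TPM scale the member medians were 0.0074 in BAT, 0.25 in eWAT, 0.17 in iWAT and -0.016 in liver, while the medians of all genes moved to -0.097, -0.14, 0.23 and -0.018, so the sign turned in iWAT with that of all genes.

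By numbered family, the enzymes of foreign compounds in family 2 had 12 of 31 tested genes above 0 in liver (median -0.041), 6 of 6 in BAT (median 0.20), 11 of 13 in eWAT (median 0.35) and 2 of 13 in iWAT (median -0.20). Over all genes tested, 47.7% were above 0 in liver, 55.0% in BAT, 50.4% in eWAT and 47.8% in iWAT. Some members, liver-only ones and others such as Cyp26b1 in eWAT and iWAT, passed the filter only through the auranofin or the vehicle group, which fixed their direction. Mean levels with auranofin and vehicle were 2.16 and 0.167 FPKM for Cyp2d26 in eWAT, and 0.00663 and 1.09 FPKM for Cyp2d10 in iWAT. Family 4, the fatty acid hydroxylases, had 6 of 11 above 0 in liver, 3 of 5 in BAT, 6 of 7 in eWAT and 4 of 8 in iWAT. On the TPM scale family 2 had 11, 5, 9 and 4 genes above 0 in liver, BAT, eWAT and iWAT, and family 4 had 6, 2, 6 and 7, with the family 4 median turning to -0.025 in BAT. In liver family 3, the broad drug-metabolising enzymes, had 1 of 4 above 0, and its summed level was 619 ± 95.8 FPKM with auranofin and 656 ± 134 FPKM with vehicle.

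**Figure D3:**
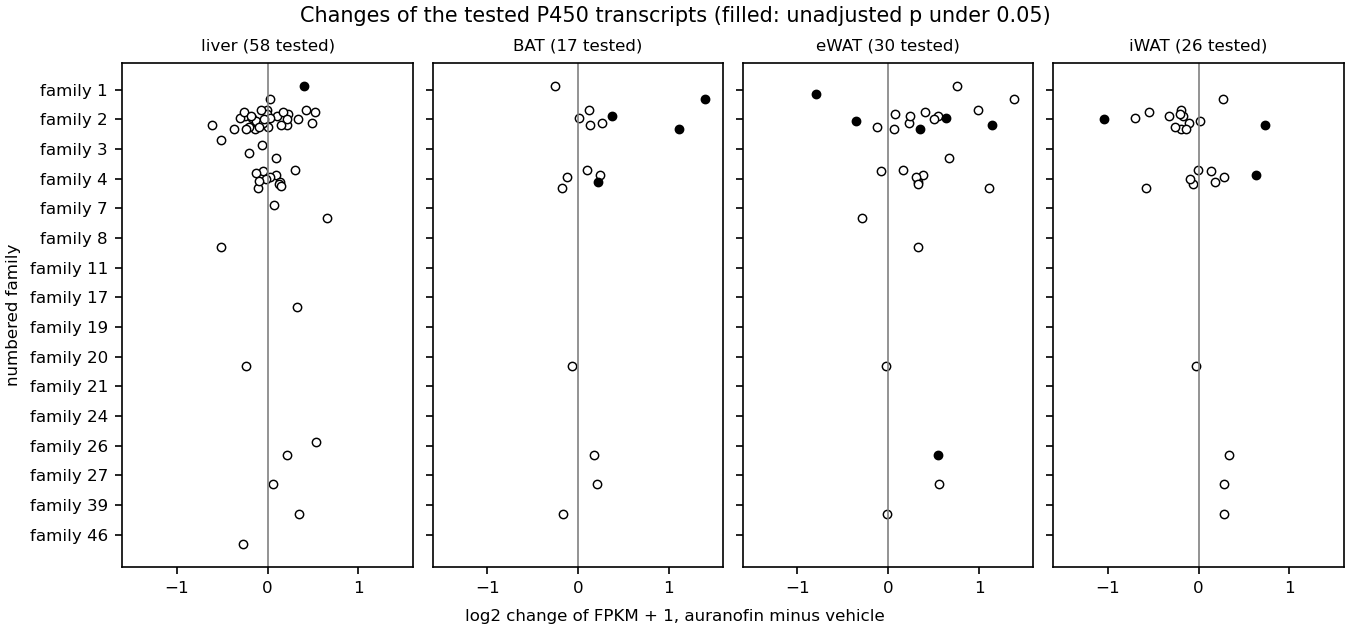
Change of every tested P450 gene with auranofin, given as the auranofin mean less the vehicle mean of log2(FPKM + 1), by numbered family in liver, BAT, eWAT and iWAT, with filled points for an unadjusted limma p under 0.05. Liver points lie between -0.61 and 0.65, the family 2 points of eWAT lie mostly to the right and those of iWAT mostly to the left. The eWAT and iWAT points include genes, liver-only ones and others such as Cyp26b1, that passed the filter only through the auranofin or the vehicle group, which fixed their direction.

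In BAT the AHR target Cyp1a1 had 16.9, 7.17, 10.997 and 16.8 FPKM in auranofin libraries and 2.72, 4.28, 8.76 and 2.35 FPKM in vehicle libraries. Auranofin library 2 lay below vehicle library 3, so the groups overlapped, although all 4 auranofin libraries exceeded the vehicle mean. The means were 13.0 ± 4.75 and 4.53 ± 2.95 FPKM, a change of 1.40 (SE 0.37, unadjusted p = 0.0043, limma adjusted p = 0.254). Of the other AHR targets, Cyp1b1 had 1.33 ± 0.328 FPKM with auranofin and 1.81 ± 0.551 FPKM with vehicle (-0.26, adjusted p = 0.584). Cyp1a2 had 0 reads with auranofin and 2 with vehicle, too few to show a change. The part of AHR in these values was not tested.

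Cyp2d22, of the drug-metabolising Cyp2d group, had 30.4, 27.1, 24.8 and 33.4 FPKM in BAT auranofin libraries and 23.3, 20.8, 22.3 and 21.6 FPKM in BAT vehicle libraries. The groups did not overlap, and the change was 0.37 (SE 0.10, unadjusted p = 0.006, limma adjusted p = 0.268). Cyp2b10 had 6.46, 8.92, 8.66 and 24.4 FPKM with auranofin and 5.86, 1.70, 5.75 and 5.55 FPKM with vehicle. It did not overlap either, but auranofin library 4 was far above the rest, and the change was 1.12 (SE 0.42, adjusted p = 0.389), or 0.74 without that library. Cyp4f16 changed by 0.22 (adjusted p = 0.434). The 4 members with the smallest p in the other direction were Cyp1b1, Cyp4b1 (-0.17), Cyp39a1 (-0.17) and Cyp4v3 (-0.13), with adjusted p of 0.584 to 0.792. In the same libraries the 6 macrophage markers summed to 13.5 to 28.4 FPKM with auranofin and 26.9 to 51.8 FPKM with vehicle, and the 6 fibroblast and progenitor markers to 44.0 to 88.5 FPKM with auranofin and 87.1 to 147 FPKM with vehicle. The 6 skeletal muscle markers summed to 2.59, 2180, 3.04 and 874 FPKM in BAT auranofin libraries 1 to 4. In BAT vehicle libraries 1 to 4 they summed to 42.3, 2.91, 193 and 537 FPKM. The part of these markers in the P450 values was not tested, and fewer cells of a type cannot be told apart from less RNA per cell in tissue RNA.

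In eWAT Cyp26b1, which breaks down retinoic acid, had 1.13, 1.42, 0.806 and 0.931 FPKM in auranofin libraries and 0.195, 0.341, 0.779 and 0.375 FPKM in vehicle libraries. The groups did not overlap, though auranofin library 3 and vehicle library 3 were nearly equal. The vehicle mean of 0.423 FPKM was under the filter, so Cyp26b1 passed it only through the auranofin group, which fixed its direction. The change was 0.55 (SE 0.16, unadjusted p = 0.0068, limma adjusted p = 0.429), and 0.40 without vehicle libraries 1 and 2. Cyp26b1 was also above its vehicle mean with auranofin in iWAT (0.33), liver (0.54) and BAT (0.17), with adjusted p of 0.314, 0.792 and 0.741, and with overlapping groups in each. Its iWAT vehicle mean, 0.460 FPKM, was under the filter too.

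Cyp1b1 had 8.07, 10.1, 11.6 and 11.2 FPKM in eWAT auranofin libraries and 27.1, 30.0, 12.2 and 11.02 FPKM in eWAT vehicle libraries. Vehicle libraries 1 and 2 were high and the others lay within or just above the auranofin range. The change was -0.79 (SE 0.32, limma adjusted p = 0.429), and -0.18 without vehicle libraries 1 and 2. Those libraries also had the highest fibroblast and progenitor markers, 727 and 791 FPKM, against 270 to 354 FPKM with auranofin and 399 and 393 FPKM in vehicle libraries 3 and 4. Their part in the Cyp1b1 values was not tested.

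Although Cyp1a1 had no small p in white fat, it was followed there after its values in BAT were seen. In eWAT it had 0.469, 16.8, 0.205 and 1.34 FPKM with auranofin and 0.0149, 0.0518, 0.370 and 0.0838 FPKM with vehicle. Auranofin library 2 alone was at the level of BAT, and the groups overlapped through vehicle library 3. The change was 1.39 (SE 0.73, adjusted p = 0.432). With a vehicle mean of 0.130 FPKM, Cyp1a1 passed the filter in eWAT only through the auranofin group, which fixed its direction. In iWAT, where Cyp1a1 stayed under the filter and was not tested, it had 0.705, 0.362, 0.412 and 0.868 FPKM with auranofin and 0.0385, 0.152, 0.437 and 0.159 FPKM with vehicle, again with overlap through vehicle library 3. In liver it had 0.793 ± 0.272 FPKM with auranofin and 0.747 ± 0.174 FPKM with vehicle.

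The other eWAT members with the smallest p were Cyp2d26 (1.15), Cyp2c23 (0.35) and Cyp2d22 (0.64) among the higher, and the vitamin D hydroxylase Cyp2r1 (-0.36), Cyp7b1 (-0.29) and Cyp2j6 (-0.12) among the lower. None passed (limma adjusted p of 0.429 to 0.734). Cyp2d26 is a liver-only member. It had 1.09, 5.56, 1.87 and 0.104 FPKM with auranofin and 0.349, 0.0537, 0.240 and 0.0261 FPKM with vehicle, highest in the libraries with the most hepatocyte markers, whose sums were 95.3, 747, 251 and 10.6 FPKM with auranofin and 61.3, 24.6, 29.2 and 8.10 FPKM with vehicle. Without auranofin libraries 2 and 3 it fell under the filter. Across the 30 tested members the median change of 0.33 was 0.04 over the 22 members tested without those libraries, and 0.13 over the 33 tested without vehicle libraries 1 and 2. Cyp2d22 was at 0.35 and 0.29, and Cyp2c23 at 0.24 and 0.20, without the same pairs of libraries. The oxysterol hydroxylase Cyp7b1 and Cyp2j6 turned to 0.014 and 0.052 without vehicle libraries 1 and 2. Named after its values were seen, Cyp2u1 did not overlap, with 1.04 to 1.38 FPKM with auranofin and 0.580 to 1.00 FPKM with vehicle (0.24, adjusted p = 0.432).

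In iWAT Cyp4b1 had 61.9, 30.9, 56.8 and 49.2 FPKM in auranofin libraries and 28.2, 32.9, 30.2 and 31.7 FPKM in vehicle libraries. Auranofin libraries 1, 3 and 4 were above every vehicle library, and library 2 lay among them. The change was 0.63 (SE 0.20, unadjusted p = 0.0119, limma adjusted p = 0.204), and 0.84 (adjusted p = 0.00141) without auranofin library 2. Library 2 was the lowest auranofin library for Cyp2d22 too, with 21.5, 7.56, 13.4 and 15.7 FPKM with auranofin and 7.88, 7.10, 8.91 and 7.55 FPKM with vehicle. Its change was 0.73 (SE 0.25, adjusted p = 0.204), and 0.99 (adjusted p = 0.00269) without auranofin library 2. Without that library 6 members were called, all higher (23.1% of members, against 36.4% of all genes). Cyp1b1 was among them, at 0.41 (adjusted p = 0.0169). Each iWAT library was left out in turn and only this drop called members, so these adjusted p rest on a chosen set of libraries.

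Cyp2e1 had 58.3, 153, 100.1 and 145 FPKM in iWAT auranofin libraries and 229, 120.1, 222 and 389.6 FPKM in iWAT vehicle libraries. Only vehicle library 2 lay within the auranofin range. The change was -1.04 (SE 0.40, unadjusted p = 0.0273, limma adjusted p = 0.205). The remaining members with the smallest p were Cyp4f17 (0.28) and Cyp1b1 (0.27) among the higher, and Cyp2u1 (-0.32), Cyp2d10 (-0.70) and Cyp2j6 (-0.20) among the lower, and on the TPM scale the last of these was 0.06. Cyp2d10 is a liver-only member with 3.94 FPKM in vehicle library 1, the iWAT library with the most hepatocyte markers (694 FPKM), and at most 0.329 FPKM in any other iWAT library. The share of protein-coding reads in genes of 1000 bases or less also moved with treatment in iWAT. It was 3.26%, 4.59%, 2.99% and 2.96% with auranofin and 5.05%, 4.44%, 4.31% and 4.45% with vehicle. Library 2 was again among the vehicle values. The 6 adipocyte markers summed to 8248, 13329, 7212 and 7494 FPKM in iWAT auranofin libraries and 11209 to 11938 FPKM in iWAT vehicle libraries, so that libraries 1, 3 and 4 lay below every vehicle library and library 2 above them. The part of these shifts and of the endothelial markers in the P450 values was not tested.

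**Figure D4:**
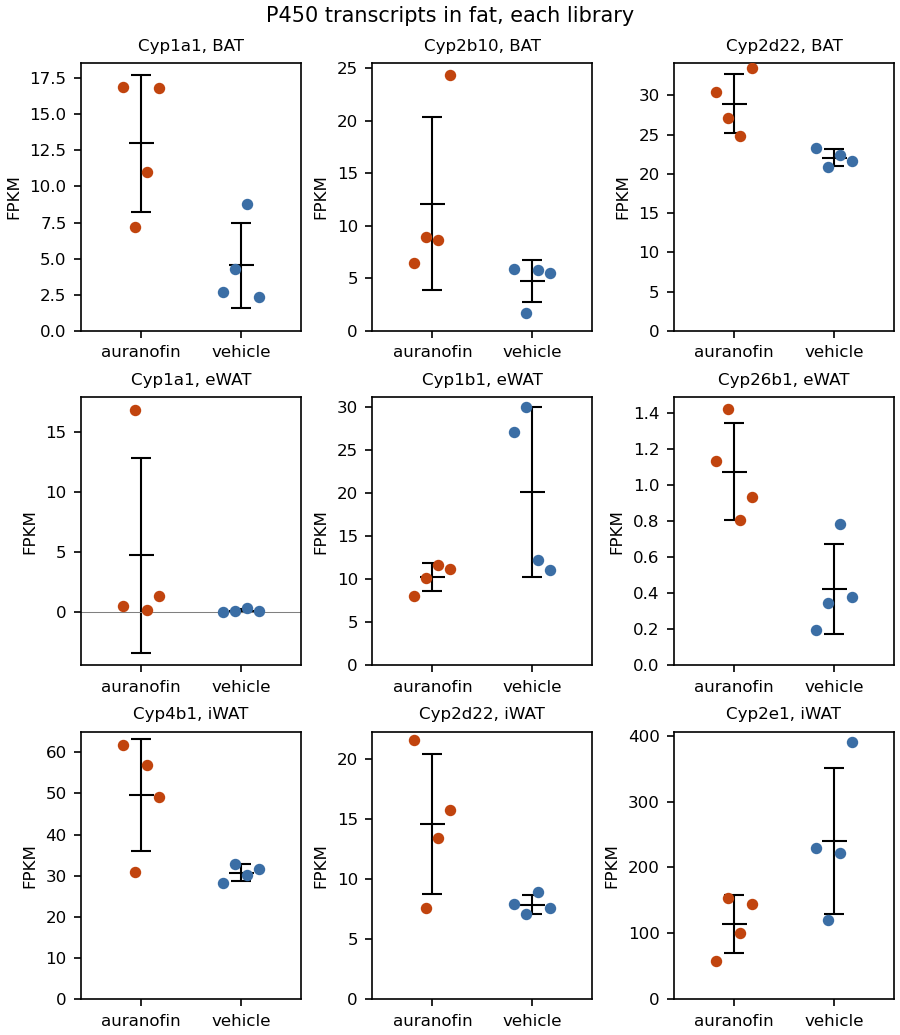
FPKM of 9 gene and depot pairs in each fat library, auranofin left of vehicle, with a dot per library and bars for mean ± SD (n = 4). Cyp2d22 and Cyp2b10 in BAT and Cyp26b1 in eWAT do not overlap between groups, eWAT Cyp1a1 rests on auranofin library 2, and iWAT Cyp4b1 and Cyp2d22 have 1 auranofin library among the vehicle values.

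In liver the P450 sum was 12098 ± 1420 FPKM with auranofin and 12304 ± 694 FPKM with vehicle. Cyp1a2, an AHR target that metabolises caffeine and aromatic amines, was the liver member with an unadjusted p under 0.05. It had 341, 281, 460.2 and 283 FPKM in auranofin libraries and 262, 263, 256 and 230.2 FPKM in vehicle libraries. The groups did not overlap, with auranofin library 3 the highest. The means were 341 ± 84.0 and 253 ± 15.3 FPKM, a change of 0.40 (SE 0.15, unadjusted p = 0.0269, limma adjusted p = 0.790), and 0.25 without auranofin library 3. Of the 9 pericentral P450 genes, expressed around the central vein, 5 were above 0 with a median change of 0.09, and the periportal Cyp2f2 was at -0.07.

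Targets of the other xenobiotic and lipid receptors stayed within the spread between liver libraries. Of 4 CAR and PXR targets tested in liver 1 was above 0, with a median change of -0.19. Cyp3a11, the main PXR target, had 289 ± 60.4 FPKM with auranofin and 284 ± 124 FPKM with vehicle (0.09), and Cyp2b10 5.55 ± 3.16 and 6.55 ± 1.84 FPKM (-0.30). Of 4 PPAR-alpha targets 3 were above 0, with a median of 0.12. Cyp4a14 had 654 ± 192 FPKM with auranofin and 606 ± 163 FPKM with vehicle (0.10), and Cyp4a10 209 ± 66.7 and 221 ± 58.4 FPKM (-0.11). Cyp2e1 had 3960.2 ± 629.6 FPKM with auranofin and 4061 ± 309 FPKM with vehicle (-0.05). Limma adjusted p-values of these genes were 0.890 to 0.971.

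Among the bile acid enzymes of liver, Cyp7a1, the rate-limiting enzyme of the classical pathway, had 13.7, 7.03, 8.92 and 21.8 FPKM with auranofin and 6.84, 7.40, 2.71 and 17.0 FPKM with vehicle. The groups overlapped widely (0.65, SE 0.47, limma adjusted p = 0.841). Cyp8b1, which directs synthesis to cholic acid, had 286, 295, 371 and 124 FPKM with auranofin and 334, 378, 323 and 408 FPKM with vehicle. Auranofin library 4 was the lowest, and the change was -0.52 (SE 0.29, adjusted p = 0.809), or -0.19 without that library. Cyp27a1 had 310.3 ± 22.1 FPKM with auranofin and 298 ± 30.3 FPKM with vehicle (0.06), and Cyp7b1, which acts on oxysterols, 85.6 ± 15.1 and 81.8 ± 15.1 FPKM (0.07). Of the 6 bile acid and cholesterol P450 genes 4 were above 0, with a median change of 0.06.

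**Figure D5:**
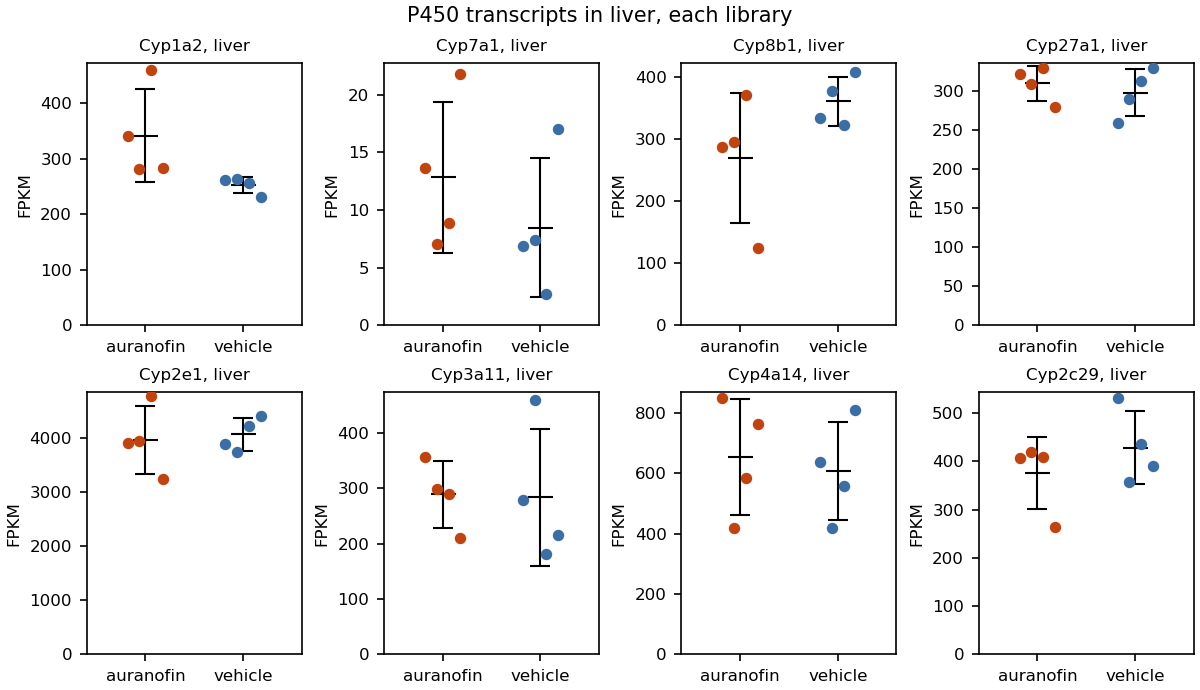
FPKM of 8 P450 genes in each liver library, auranofin left of vehicle, with a dot per library and bars for mean ± SD (n = 4). Cyp1a2 is the gene without overlap, and Cyp8b1 has auranofin library 4 at 124 FPKM below all others.

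The liver members with the next smallest p were Cyp2j9 (0.52), Cyp2c23 (0.33) and Cyp26b1 (0.54) on the higher side and the brain-type cholesterol hydroxylase Cyp46a1 (-0.27), Cyp2d40 (-0.38), Cyp20a1 (-0.24) and Cyp8b1 on the lower. Their limma adjusted p-values were 0.790 to 0.809. In liver the 5 mesothelial markers summed to 3.04 to 6.89 FPKM with auranofin and 1.55 to 1.9997 FPKM with vehicle, and the macrophage markers to 25.04 to 36.0 FPKM with auranofin and 19.6 to 27.8 FPKM with vehicle. Cyp2s1, named after its values were seen, stayed under the filter but did not overlap in liver either, with 0.174 ± 0.0342 FPKM with auranofin and 0.0520 ± 0.0313 FPKM with vehicle, from 40 and 12 reads in all. The part of these markers in the liver values was not tested.

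Genes of steroid hormone synthesis were mostly silent. Of the 6, only Cyp17a1 reached 1 FPKM by vehicle median, in liver, with 21.5 ± 6.82 FPKM with auranofin and 17.1 ± 5.42 FPKM with vehicle. Cyp11a1, which cuts the cholesterol side chain in steroid-making cells, stayed under the filter everywhere. In eWAT it had 0.102, 0.0834, 0.183 and 0.0679 FPKM with auranofin and 0.295, 1.07, 0.233 and 0.379 FPKM with vehicle, 44 and 206 reads in all, without overlap and not tested, and named here after its values were seen. Of the vitamin D enzymes, Cyp2r1 had 8.33 ± 0.549 FPKM with auranofin and 8.60 ± 0.685 FPKM with vehicle in liver. Cyp27b1 and Cyp24a1, which activate and degrade the hormone mainly in kidney, stayed below 1 FPKM by vehicle median in every tissue. Of the retinoic acid enzymes, Cyp26a1 reached 1 FPKM in liver alone, with 2.04 ± 1.89 FPKM with auranofin and 1.40 ± 0.756 FPKM with vehicle.

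An interaction term asked whether tissues differed in their change with auranofin, and no member passed. Comparing eWAT with iWAT, 0 of 28 members were called (background 0.0%) and 5 had an unadjusted p under 0.05 (background 23.5%). The smallest p were those of Cyp2u1 at 0.56 and Cyp1b1 at -1.06, both with a limma adjusted p of 0.177. Comparing eWAT with BAT, 0 of 25 were called (background 0.0%) and 2 had an unadjusted p under 0.05 (background 5.84%), Cyp2r1 at -0.51 and Cyp2b10 at -1.19 (adjusted p = 0.777). Comparing iWAT with BAT, 0 of 22 were called (background 0.0224%) and 5 had an unadjusted p under 0.05 (background 23.1%), led by Cyp4b1 at 0.81 (adjusted p = 0.122) and Cyp2b10 at -1.31 (adjusted p = 0.151). Comparing liver with the mean of the fat depots, 0 of 56 were called (background 0.0%) and 6 had an unadjusted p under 0.05 (background 6.04%), led by Cyp46a1 at -0.33 and Cyp2d40 at -0.39 (adjusted p = 0.798). Voom called 0 members in each of these. Without iWAT auranofin library 2, Cyp2u1 and Cyp1b1 passed between eWAT and iWAT (6.67% of members, against 14.8% of all genes), and 5 members passed between iWAT and BAT (23.8%, against 27.4%).

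The genes that serve the P450 enzymes were read beside them. Of 8 redox partners, which pass electrons to the enzymes, 6 were higher in liver than in fat (background 36.0%), but Por, the reductase of the microsomal enzymes, did not differ (0.04, limma adjusted p = 0.817). With auranofin 0 of 8 passed in any tissue, and 3 had an unadjusted p under 0.05 in eWAT (background 11.4%), 1 in iWAT (background 22.0%), 1 in BAT (background 11.2%) and 0 in liver (background 6.04%). In eWAT 7 of the 8 were above 0 (median 0.21) and in iWAT 1 of the 8 (median -0.34), with Por at 0.64 in eWAT and -0.30 in iWAT. On the TPM scale these were 5 of 8 in eWAT (median 0.054) and 2 of 8 in iWAT (median -0.077). Of 9 genes of haem synthesis and breakdown, 8 were higher in liver (background 36.0%) and 1 was lower (background 36.1%), Hmox1, the haem-degrading oxygenase (-1.86). With auranofin Hmox1 had 15.0, 16.4, 10.3 and 7.10 FPKM in BAT and with vehicle 24.8, 28.3, 63.2 and 29.0 FPKM. The groups did not overlap, and the change of -1.46 (SE 0.33, unadjusted p = 0.0017) had an adjusted p of 0.220. Of 14 regulators of P450 genes 12 could be tested between liver and fat and 11 were higher in liver (background 36.0%), among them Hnf4a (7.52), Nr1i2, which encodes PXR (6.03), Nr1h4, the bile acid receptor (5.73), Nr1i3, which encodes CAR (4.00), Ppara (2.85) and Ahr (2.02). With auranofin 0 regulators passed in any tissue, and 1 had an unadjusted p under 0.05, in iWAT (background 22.0%).

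A further 7 P450 genes fall outside the naming rule, and 0 of them passed with auranofin in any tissue. Cyp4a12a, a fatty acid hydroxylase of male mouse liver, had 22.5, 50.2, 27.7 and 44.4 FPKM with auranofin and 75.0, 71.3, 43.3 and 77.4 FPKM with vehicle in liver, with overlap through vehicle library 3 (-0.90, SE 0.27, unadjusted p = 0.0093, limma adjusted p = 0.790). Cyp51, of cholesterol synthesis, was at -0.63 in iWAT and -0.73 in eWAT, with adjusted p of 0.216 and 0.429.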

How the data were processed

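The deposited table holds FPKM for 54532 genes in 32 libraries. Per the submitters' processing notes, the build was mm10 and the tools were DESeq2 1.20.0, featureCounts 1.5.0-p3, STAR 2.6.1d and CASAVA. The role of each is not given in the sources used here. Per the labels' protocols, total RNA was used and the library kit does not record strand. FPKM times gene length came out as whole reads within 0.1 read, which gave 13606756 to 19205640 reads per library.

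Values were tested as log2(FPKM + 1) by limma 3.58.1 (R 4.3.3), whose prior variance followed the mean level, over genes with a mean of at least 0.5 FPKM, with Benjamini-Hochberg adjustment over all genes tested. Each tissue was fitted alone for auranofin, and the 16 vehicle libraries together for tissues. Alternatives were another pseudocount, filter, scaling, test, threshold and each library left out. The main fit was tested on simulated data. The members and lists were chosen with earlier results of these data known. Genes are named by this rule: per auranofin comparison the passing members or the 4 with the smallest p per direction, in liver also 10 fixed genes; per tissue comparison the 6 largest passing differences per direction; per interaction the 2 smallest p; and for levels the 6 highest per tissue and the members of role lists.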

Additional observations from a re-analysis of the deposited data

Results flagged for a closer look

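In 16 of the 164 groups of 4 libraries examined for the named genes, 1 library lay far from the other 3 by Dixon's ratio. Chance alone flags about 1 in 20 groups of independent, normally spread values. These were FPKM values, some near 0, and the same libraries recur across genes, so the count cannot be set against that rate. No explanation was tested.

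Liver-only genes were far above the rest in the libraries with the most hepatocyte markers. In iWAT vehicle library 1, Cyp2d10 had 3.94 FPKM and Cyp4a14 3.30 FPKM, and the more widely expressed Cyp27a1 had 16.1 FPKM there. In eWAT auranofin library 2, Cyp3a11 had 4.59 FPKM and Cyp8b1 1.64 FPKM. Cyp1a1 had 16.8 FPKM in that eWAT library, against 0.205 to 1.34 FPKM in the other auranofin libraries. Cyp2d10 had 0.0265 FPKM, a single read, in iWAT auranofin library 1 and 0 in the other 3.

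In BAT auranofin library 4, Cyp2b10 had 24.4 FPKM and Cyp2e1 10.6 FPKM, both far above the other auranofin libraries, while Cyp2b10 was lowest in vehicle library 2 at 1.70 FPKM. Liver auranofin library 4 was lowest for Cyp2c29 at 263 FPKM, and liver auranofin library 3 highest for the coumarin hydroxylase Cyp2a5 at 326 FPKM, a gene nearly identical to Cyp2a4. In eWAT, Cyp2j6 was highest in vehicle library 2 at 10.2 FPKM, Cyp2r1 highest in auranofin library 4 at 1.01 FPKM and Cyp39a1 lowest in auranofin library 1 at 1.09 FPKM. In iWAT, Cyp2j6 was lowest in vehicle library 4 at 7.99 FPKM.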

How the results depend on the processing

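The counts of P450 genes called were within 1.5 times the main count under 105 of 110 planned or added settings other than leaving out a library, and under 157 of 160 that leave out 1 library. Most of these set 0 against 0, since the main count was 0 in every auranofin and interaction comparison. A like count can also hide other genes. Between eWAT and iWAT, TPM scaling and quantile normalisation dropped Cyp2e1, and the auranofin libraries kept only Cyp1b1 and Cyp4f18 of the main genes. With auranofin in iWAT, 1 gene was called in 1 fit of all libraries (Cyp2d22; 5.48% of all genes), 8 with sample quality weights (46.3% of all genes), and 0 to 6 with 1 library left out. In eWAT 2 genes, Cyp2d26 and Cyp1b1, were called in 1 fit of all libraries (9.24% of all genes). Asking for a difference of 1 or more left 10 genes between BAT and white fat and 2 between eWAT and iWAT. With 1 library left out, interactions called 0 to 2 genes between eWAT and iWAT and 0 to 5 between iWAT and BAT, tissue comparisons called 53 to 54 (liver and fat), 18 to 21 (BAT and white fat) and 4 to 7 (eWAT and iWAT), and the others called 0.

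Some named genes turned direction; the cause was not tested. Cyp2j6 in iWAT was at 0.058 on the TPM scale, Cyp7b1 and Cyp2j6 in eWAT at 0.014 and 0.052 without vehicle libraries 1 and 2, Cyp7b1 in liver at -0.023 with quality weights, and Cyp2e1 between eWAT and iWAT at 0.34 in auranofin libraries. With 1 library left out, liver changes ran from -0.0036 to 0.11 for Cyp27a1, -0.14 to 0.046 for Cyp2e1, -0.093 to 0.355 for Cyp3a11, -0.27 to 0.12 for Cyp4a10, -0.067 to 0.29 for Cyp4a14 and -0.047 to 0.18 for Cyp7b1. Those of Cyp2j6 in eWAT ran from -0.19 to 0.046 and of Cyp4v3 in BAT from -0.24 to 0.0057.

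In no pair of groups did every same-numbered pair of libraries correlate above 0.1. In some pairs of groups, such as BAT and iWAT auranofin, 3 same-numbered pairs did. Differently numbered pairs were not compared, so whether replicate numbers pair the libraries was not settled. With the replicate number as a block, 0 genes were called with auranofin or in any interaction, 54 between liver and fat, 21 between BAT and white fat and 7 between eWAT and iWAT. Few reads limit the low genes, such as Cyp1a1 in iWAT vehicle libraries with 40 reads in all.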

Other observations

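On the main scale, genes of haem supply and bile acid handling lay mostly below 0 with auranofin in iWAT and mostly above 0 in eWAT. Over all genes tested, 47.8% were above 0 in iWAT and 50.4% in eWAT. Of the haem and bile acid genes limma called 0. Of 9 haem genes, 2 were above 0 in iWAT and 7 in eWAT. In iWAT Alas1, the first enzyme of haem synthesis, was at -0.56, and Alad and Urod downstream of it were at -0.73 and -0.47, with limma adjusted p of 0.204 to 0.205. On the main scale, 0 of the 3 other bile acid genes tested were above 0 in iWAT and 4 of 4 in eWAT. On the TPM scale 4 of the 9 haem genes were above 0 in each depot, and the bile acid genes had 1 of 3 above 0 in iWAT and 4 of 4 in eWAT. The difference between the depots was not tested for these lists. Hepatocyte markers were highest in eWAT auranofin libraries 2 and 3 (747 and 251 FPKM) and iWAT vehicle library 1 (694 FPKM). Their part in the bile acid genes was not tested.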
